A study of Rattus norvegicus with 50 samples.

Results

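Enalapril treatment of the obese kidney cortex was examined in 10 of the 50 libraries of the series, chosen by their titles alone. Cortex from obese ZSF1 rats labelled for enalapril at 10 mpk, the unit as the labels write it, gave 5 libraries, which were set against 5 libraries from obese ZSF1 rats given vehicle. All libraries share the ZSF1 strain label, a labelled treatment of 28 weeks and a labelled age of 20 weeks. Both figures cannot describe the rats at collection, and the labels give neither sex nor route of dosing. Kidneys were flash frozen and stranded libraries were made from total RNA after removal of ribosomal RNA. Levels are also given for cortex of obese ZSF1 rats given MK-8722, an activator of AMP-activated protein kinase, at 1 mpk or 10 mpk and of lean ZSF1 rats given vehicle (5 libraries each). Medulla libraries of obese ZSF1 rats given enalapril or vehicle (5 each) are used for the same comparison in that tissue and for its difference from cortex, and a plot also shows medulla of lean ZSF1 rats given vehicle (5). Which libraries come from the same animal is not in the labels, so each p-value measures only the spread among libraries, which may be technical.

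Enalapril is a prodrug whose active form inhibits angiotensin-converting enzyme, which turns angiotensin I into angiotensin II. Angiotensin II constricts vessels, drives aldosterone release and sodium retention, and restrains the release of renin from the juxtaglomerular cells beside the glomeruli of the cortex. Inhibitors of the enzyme are used against diabetic kidney disease, and obese ZSF1 rats, which inherit a defective leptin receptor, develop obesity, diabetes and kidney injury. The deposited table pairs its Ensembl gene IDs with no names, so the genes of these pathways and the marker genes of cortex were not analysed here by name, and the tissue label was not checked against markers. IDs are given no function.

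Values are FPKM, the sequenced fragments of a gene relative to its length and to the fragments of its library. Of 32545 IDs, 8434 were listed at 0 in all 10 libraries, 11269 had some signal but did not reach the filter, and 12842 reached 1 FPKM in no fewer than 5 of the 10 libraries and were tested. Log2 fold changes are enalapril over obese vehicle on the scale log2(FPKM + 0.5), which understates changes of low genes. "Deposited" values are used as the authors gave them. "Rescaled" values were divided by a scale factor per library, the median ratio of the tested IDs to their geometric mean. A call is a two-sided limma p, Benjamini-Hochberg adjusted over all tested IDs, under 0.05. In bulk tissue, fewer cells of a type and less RNA per cell cannot be told apart.

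The share held by the most abundant IDs separated the 10 libraries by treatment, by a narrow margin, while the other library measures overlapped between the groups. The 6 most abundant IDs held 59.8% to 64.0% of the summed FPKM in the enalapril libraries, against 39.1% to 59.6% in the obese vehicle libraries. The means were 61.2% ± 1.91 with enalapril and 52.6% ± 8.23 with obese vehicle (SD, n = 5 each; exact permutation test, two-sided, p = 0.00794, the smallest that 5 against 5 libraries can give, adjusted over 4 library measures p = 0.0317). The difference of 8.54 percentage points was 5.16 points without obese vehicle replicate 2 (exact permutation p = 0.0159). The scale factor was 0.94 ± 0.0339 with enalapril and 1.08 ± 0.101 with obese vehicle (exact permutation p = 0.0159, adjusted 0.0317). Relative sequencing depth averaged 1.25 ± 0.167 with enalapril and 1.02 ± 0.212 with obese vehicle. The difference in depth, 0.221, did not pass the test (exact permutation p = 0.111, adjusted 0.111), which does not show that depth was equal. The number of IDs at an FPKM of at least 1 averaged 12579 ± 170 with enalapril and 13037 ± 333 with obese vehicle, and this difference failed the adjustment (exact permutation p = 0.0476, adjusted 0.0635). The part of the share held by the 6 most abundant IDs in the gene results was not tested.

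**Figure D1:**
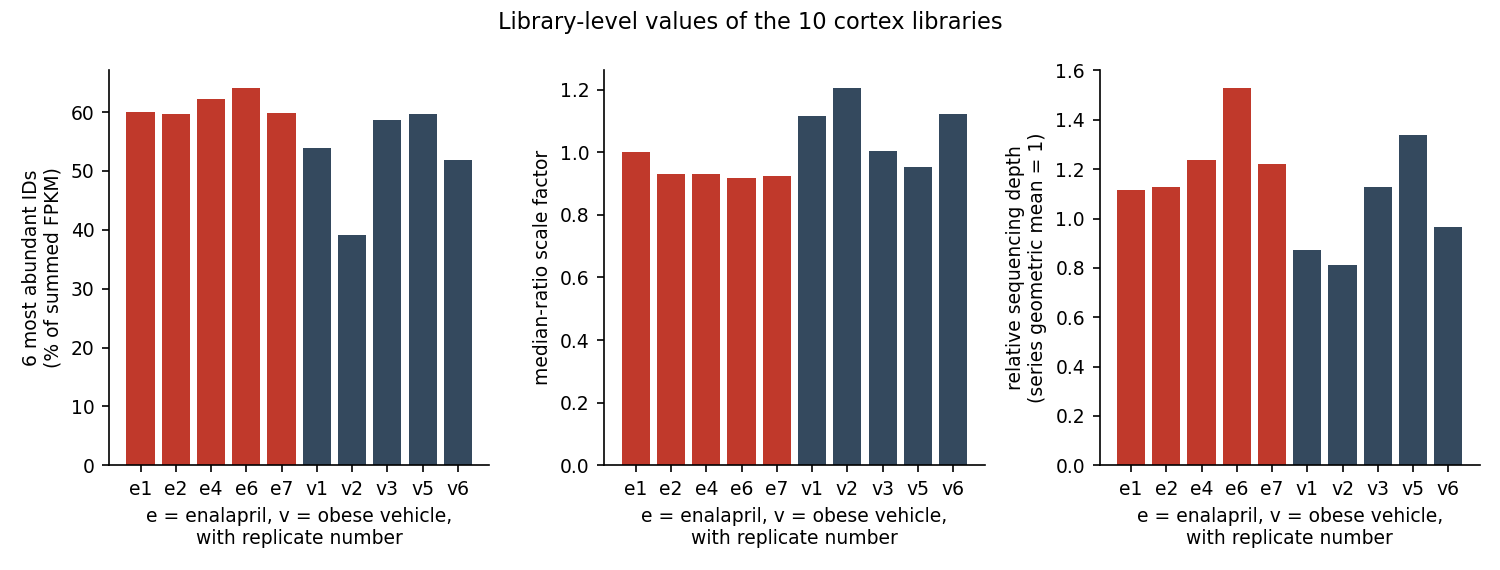
Share of the summed FPKM held by the 6 most abundant IDs (left, percent), median-ratio scale factor (middle) and sequencing depth relative to the geometric mean of the series (right), 1 bar per cortex library, enalapril left of obese vehicle. Obese vehicle replicate 2 has the lowest share (39.1%) and the highest scale factor (1.20), while obese vehicle replicates 3 and 5 lie close to the enalapril libraries in share.

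Obese vehicle replicates 1, 2 and 6 stood apart from the other libraries. On the first principal component of the rescaled values, which held 36.7% of the variance, they scored -26.0, -26.7 and -24.5. Obese vehicle replicate 5 scored 13.2, inside the range of 11.9 to 19.5 taken by enalapril replicates 2, 4, 6 and 7. Enalapril replicate 1 and obese vehicle replicate 3 lay between, at -1.13 and -0.71. Relative depth was lowest in obese vehicle replicates 1, 2 and 6, at 0.874, 0.813 and 0.966, against 1.11 to 1.53 in the other libraries. Obese vehicle replicate 5 had a relative depth of 1.34. Scale factors were highest in obese vehicle replicates 1, 2 and 6, at 1.11, 1.20 and 1.12. The part of depth in this component was not tested. Pairs of libraries correlated across IDs with a median r of 0.982 within enalapril and 0.976 within obese vehicle, against 0.973 between the groups. The spread within the groups was unequal as well, with a median SD over IDs of 0.14 with enalapril and 0.17 with obese vehicle on the rescaled log2 scale. The SD was larger in obese vehicle for 64.0% of IDs, and for 61.5% when obese vehicle replicate 2 was left out.

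ENSRNOG00000002937 showed the largest change in the comparison. It had 35.8, 35.1, 61.8, 62.5 and 46.0 FPKM in enalapril replicates 1, 2, 4, 6 and 7, against 6.59, 5.88, 6.09, 8.36 and 6.04 FPKM in obese vehicle replicates 1, 2, 3, 5 and 6. The groups were far apart, and the lowest enalapril library held more than 4 times the FPKM of the highest obese vehicle library. The means were 48.2 ± 13.4 FPKM with enalapril and 6.59 ± 1.02 FPKM with obese vehicle (SD, n = 5 each). The log2 fold change was 2.75 ± 0.171 on the deposited values (SE, limma adjusted p = 2.1e-05). On the rescaled values it was 2.93 ± 0.209, with a 95% interval of 2.47 to 3.39 (limma adjusted p = 0.000242). The rise passed the threshold whichever of the 10 libraries was left out, with adjusted p of 0.000503 to 0.0031 on the rescaled values. With relative depth as a covariate the rescaled log2 fold change was 2.57 (limma adjusted p = 4.11e-05), and without the 2 libraries of the higher number range it was 2.94 (limma adjusted p = 0.000482).

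The level of ENSRNOG00000002937 with enalapril was the highest of the 5 cortex groups. It averaged 3.81 ± 2.13 FPKM with MK-8722 at 1 mpk and 4.83 ± 3.96 FPKM with MK-8722 at 10 mpk. In lean vehicle cortex it averaged 8.67 ± 1.42 FPKM (SD, n = 5 each). The 4 groups without enalapril overlapped in part, and obese vehicle values of 5.88 to 8.36 FPKM reached into the lean range of 7.42 to 10.8 FPKM. Every enalapril library lay above all 20 other cortex libraries.

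ENSRNOG00000013062 had the second largest rise among the calls on both scales. It had 175.6, 148.3, 350.2, 240.0 and 215.6 FPKM in enalapril replicates 1, 2, 4, 6 and 7, against 76.4, 57.1, 64.0, 124.5 and 80.8 FPKM in obese vehicle replicates 1, 2, 3, 5 and 6. The groups did not overlap, though obese vehicle replicate 5 came close to the lowest enalapril library. The means were 226 ± 77.9 FPKM with enalapril and 80.6 ± 26.3 FPKM with obese vehicle (SD, n = 5 each). The log2 fold change was 1.47 ± 0.254 on the deposited values (SE, limma adjusted p = 0.0431) and 1.67 ± 0.294 on the rescaled values (limma adjusted p = 0.0398). Lean vehicle cortex held 78.9 ± 14.2 FPKM, a level inside the obese vehicle range, and MK-8722 at 1 and 10 mpk gave 55.8 ± 9.74 and 28.0 ± 14.7 FPKM.

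ENSRNOG00000025571 had the largest fall called on both scales. It had 0.542, 1.61, 0.651, 0.791 and 0.494 FPKM in enalapril replicates 1, 2, 4, 6 and 7, against 5.76, 4.46, 2.68, 1.65 and 4.38 FPKM in obese vehicle replicates 1, 2, 3, 5 and 6. The groups touched without overlapping, since enalapril replicate 2 and obese vehicle replicate 5 were nearly equal. The log2 fold change was -1.66 ± 0.289 on the deposited values (SE, limma adjusted p = 0.0431) and -1.51 ± 0.266 on the rescaled values (limma adjusted p = 0.0341). Group means were 0.817 ± 0.457 FPKM with enalapril and 3.78 ± 1.62 FPKM with obese vehicle (SD, n = 5 each). The ID was listed at 0 in 4 of the 5 lean cortex libraries and at 0.144 FPKM in the other. MK-8722 gave 3.93 ± 1.60 FPKM at 1 mpk and 1.56 ± 1.27 FPKM at 10 mpk.

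ENSRNOG00000007778 fell to 3.73, 3.01, 2.01, 2.40 and 2.11 FPKM in enalapril replicates 1, 2, 4, 6 and 7, against 8.51, 9.27, 6.17, 4.77 and 12.4 FPKM in obese vehicle replicates 1, 2, 3, 5 and 6. Again the groups did not overlap, and obese vehicle replicates 3 and 5 were the closest to the enalapril values. The means were 2.65 ± 0.716 FPKM with enalapril and 8.23 ± 2.96 FPKM with obese vehicle (SD, n = 5 each). The log2 fold change was -1.43 ± 0.228 on the deposited values (SE, limma adjusted p = 0.0414) and -1.26 ± 0.19 on the rescaled values (limma adjusted p = 0.0341). Lean vehicle cortex held 0.175 ± 0.0379 FPKM, below every enalapril library. MK-8722 gave 7.24 ± 1.86 FPKM at 1 mpk and 5.57 ± 5.22 FPKM at 10 mpk, with 1 library of the higher dose at 14.6 FPKM.

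**Figure D2:**
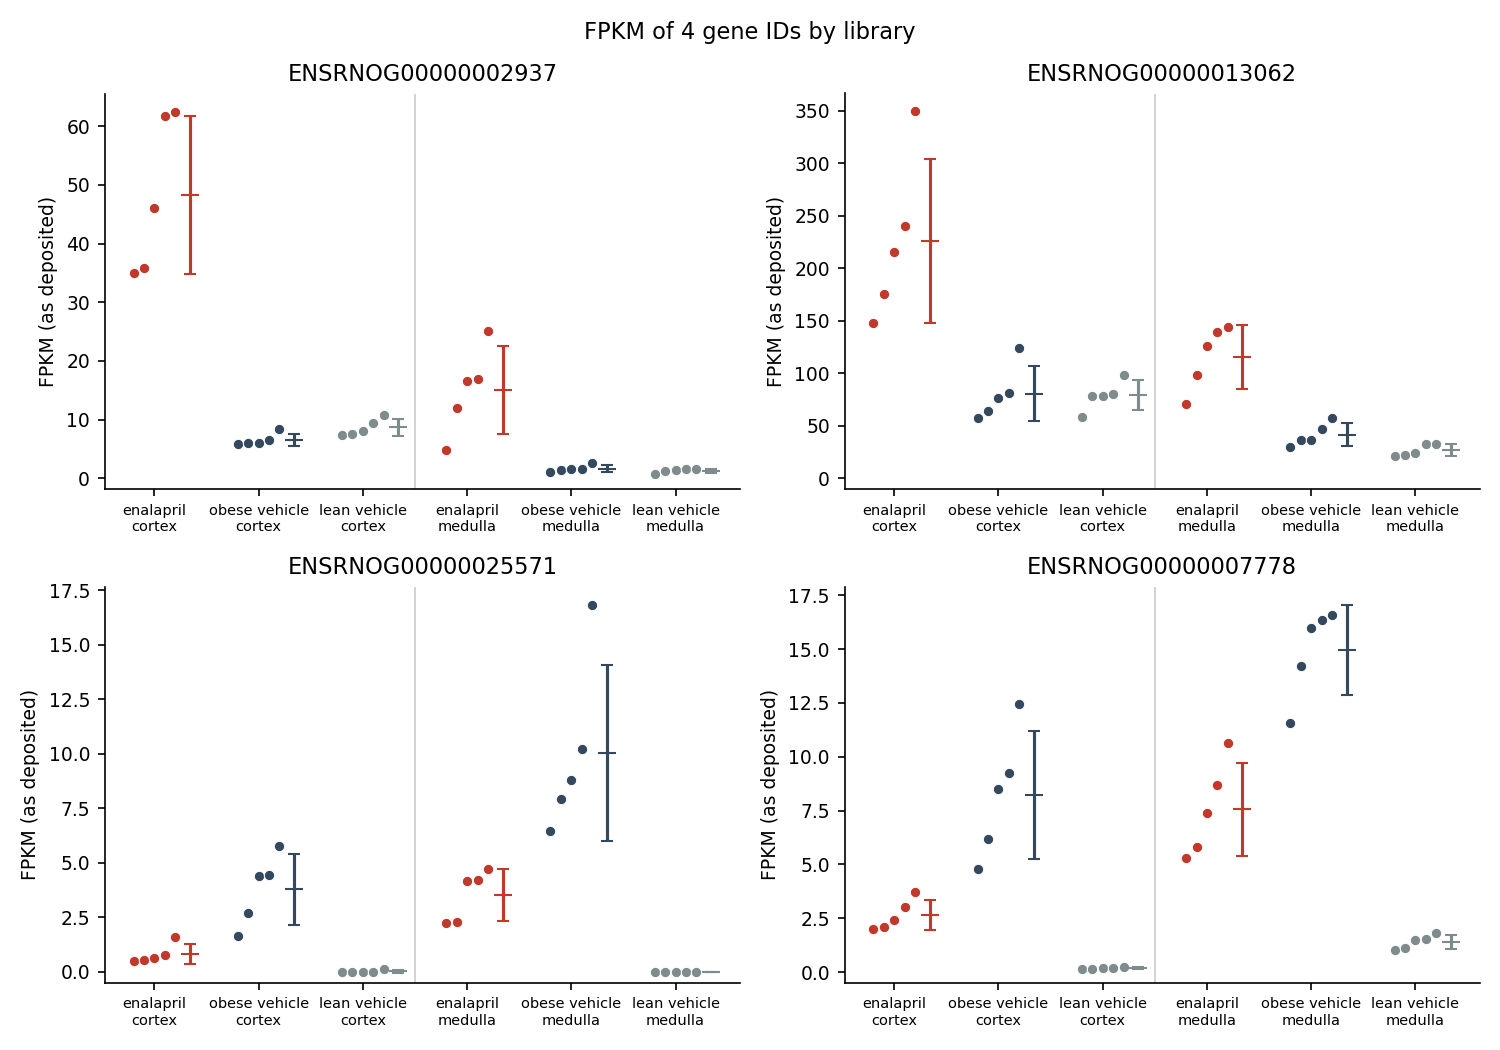
FPKM as deposited of the 4 IDs in each library of the enalapril, obese vehicle and lean vehicle groups of cortex (left of the grey line) and medulla (right of it). Points are libraries sorted by value, and the bar beside them is the mean ± SD (n = 5). In all 4 panels and both tissues no enalapril library lies inside the obese vehicle range. The IDs were picked by their changes in these cortex libraries, so nothing is read from this in cortex. As deposited, the cortex groups did not overlap for 5.54% of all tested IDs. The share in medulla was not computed, so nothing is read from the separation in medulla either.

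The adjusted p of ENSRNOG00000013062, ENSRNOG00000025571 and ENSRNOG00000007778 lay close to the threshold and crossed it when single libraries were left out, while the fold changes moved little. With 1 library left out, the rescaled log2 fold change was 1.49 to 1.88 for ENSRNOG00000013062, -1.71 to -1.36 for ENSRNOG00000025571 and -1.38 to -1.11 for ENSRNOG00000007778. On the rescaled values the calls held without enalapril replicate 1 (limma adjusted p of 0.0252, 0.0272 and 0.0194) and without obese vehicle replicate 5 (0.00439, 0.00367 and 0.0035). Without any 1 of the other 8 libraries they missed the threshold, with adjusted p up to 0.113, 0.102 and 0.102, except that ENSRNOG00000025571 stayed just under it without enalapril replicate 2 (0.0496). With relative depth as a covariate they missed it too, with rescaled log2 fold changes of 1.22, -1.16 and -0.999 (limma adjusted p = 0.293, 0.27 and 0.256). Directions were the same in all of these fits. As for the covariate, relative depth was lower in obese vehicle replicates 1, 2 and 6 than in every enalapril library. Depth and treatment therefore cannot be fully separated in that fit.

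Across all tested IDs the response was small. Log2 fold changes lay between -0.63 and 0.18 as deposited and between -0.46 and 0.36 after rescaling for the middle 90% of IDs, and 89.7% and 94.1% were within 0.5 of 0. At least 2-fold differences in either direction were found for 76 IDs as deposited and 49 after rescaling. On the deposited values the median over all IDs was -0.17, so most IDs read lower with enalapril, and rescaling moved that median to 0.01. The balance of calls followed the scale. As deposited, 484 IDs were called, 3.77% of those tested, with 25 higher (0.195%) and 459 lower (3.57%). After rescaling 125 were called, 0.973% of those tested, with 42 higher (0.327%) and 83 lower (0.646%).

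Calls in the same direction on both scales numbered 104, or 0.81% of tested IDs, with 21 higher (0.164%) and 83 lower (0.646%). All 83 rescaled falls were among the 459 deposited falls, while 376 deposited falls were not called after rescaling. Of the 42 rescaled rises, 21 were also deposited rises, and 4 deposited rises were not called after rescaling. No ID was called in opposite directions on the 2 scales. The 21 rises had rescaled log2 fold changes of 0.48 to 2.93 with a median of 0.70, and 6 of them were at least 2-fold. The 83 falls had sizes of 0.35 to 1.51 with a median log2 fold change of -0.55, and 5 of them were at least 2-fold. On the rescaled values the groups did not overlap for 18 of the 21 rises and 70 of the 83 falls, beside 3.63% of all tested IDs (1.66% with enalapril higher, 1.97% with enalapril lower). As deposited they did not overlap for 17 rises and 59 falls, beside 5.54% of all tested IDs (0.35% higher, 5.19% lower). The calls come from the same values, so nothing is read from these counts.

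**Figure D3:**
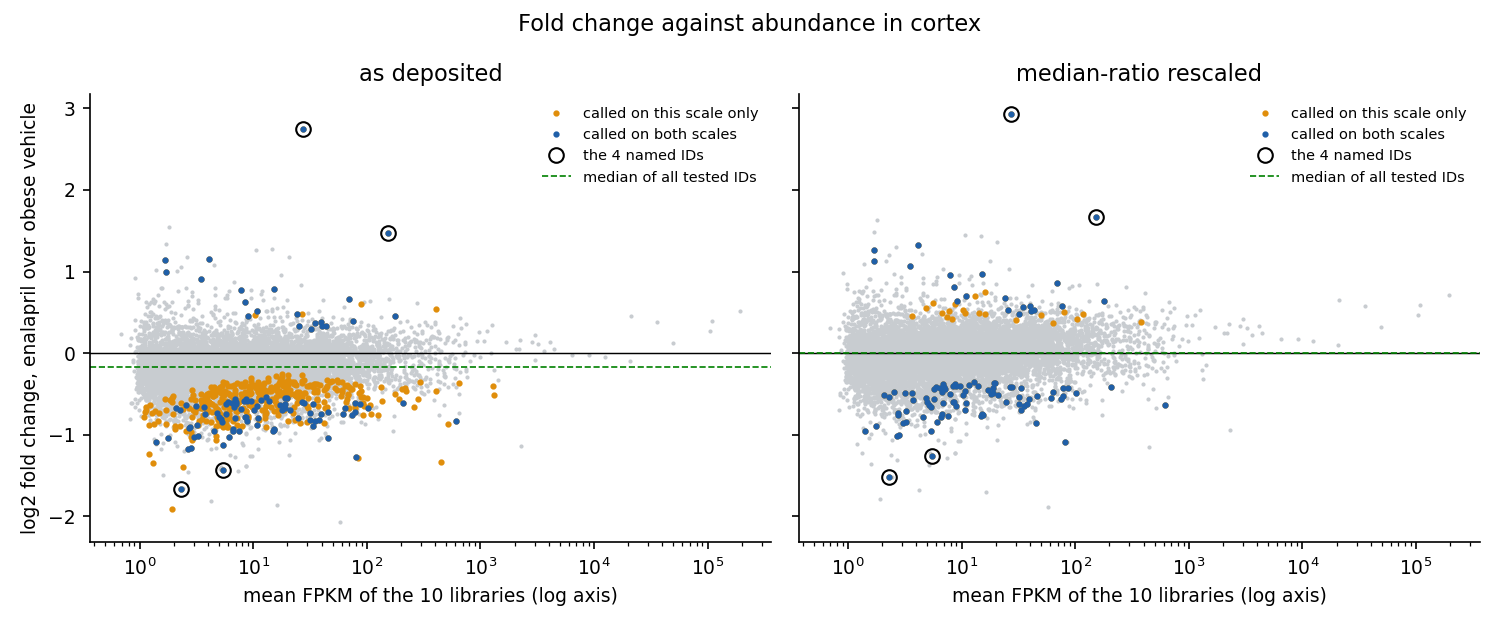
Log2 fold change (enalapril over obese vehicle) against the mean FPKM of the 10 libraries (log axis) for 12842 IDs, as deposited (left) and rescaled (right). Blue points are the 104 IDs called on both scales, orange points those called on that scale only, circles the 4 named IDs, and the dashed line the median of all IDs, -0.17 as deposited and 0.01 after rescaling.

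Relative to the other IDs, abundant IDs leaned higher with enalapril on both scales, although their deposited median was below 0. Among 507 IDs with a mean of 100 FPKM or more the median rescaled log2 fold change was 0.14, and among 1463 IDs of 30 to 100 FPKM it was 0.05. It was 0.02 for 3642 IDs of 10 to 30 FPKM, -0.01 for 4637 IDs of 3 to 10 FPKM and -0.05 for 2529 IDs of 1 to 3 FPKM. The deposited medians of these 5 classes were all below 0, running from -0.05 in the most abundant class to -0.20 in the least abundant. Calls on both scales made up 0.474% of the IDs of 1 to 3 FPKM, 0.841% of those of 3 to 10 FPKM and 0.686% of those of 10 to 30 FPKM, beside 0.81% of all tested IDs. They made up 1.57% of the IDs of 30 to 100 FPKM (7 higher, 16 lower) and 0.986% of those of 100 FPKM or more.

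The number of calls depended on single libraries. Of the 104, 19 of the 21 rises and 82 of the 83 falls had a rescaled adjusted p of 0.03 to 0.05. Leaving out obese vehicle replicate 5, which lay among the enalapril libraries on the first principal component, raised the count on both scales to 1363. Leaving out enalapril replicate 1 raised it to 533. Without obese vehicle replicate 1 it was 3, without obese vehicle replicates 2 or 6 it was 2, and without obese vehicle replicate 3 it was 4. Without enalapril replicates 2, 6 or 7 it was 3, and without enalapril replicate 4 it was 2. With relative depth as a covariate 2 IDs were called on both scales, in a fit that cannot fully separate depth from treatment.

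Calls that held on both scales whichever library was left out numbered 2 of the 21 rises and 0 of the 83 falls (limma). At an unadjusted limma p under 0.05, 4372 of the 12842 tested IDs passed on the deposited and 2943 on the rescaled values with all 10 libraries. A share of 0.05 passes that cutoff when nothing differs, and IDs are not independent of each other. The rescaled count was 2234 to 4017 with 1 library left out, and 1180 with relative depth as a covariate. One of the 2 lasting rises was ENSRNOG00000002937. The other was an ID outside the 4 named by size, seen only after its values were known. It averaged 5.83 ± 0.714 FPKM with enalapril and 2.36 ± 0.437 FPKM with obese vehicle (SD, n = 5 each), with libraries of 5.03 to 6.47 FPKM against 1.77 to 2.95 FPKM. Its rescaled log2 fold change was 1.32 ± 0.11 (SE, limma adjusted p = 0.000242), and in medulla it was 0.43 (limma adjusted p = 0.296).

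**Figure D4:**
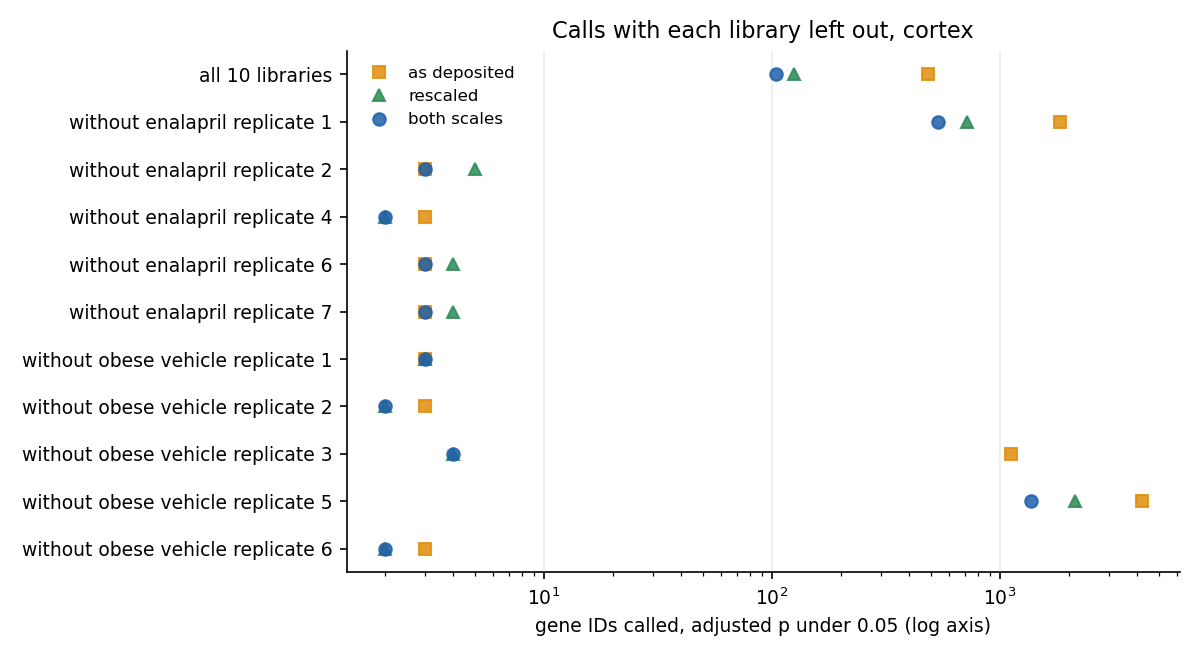
Number of IDs called in cortex (log axis) with all 10 libraries and with each library left out, as deposited (squares), rescaled (triangles) and in the same direction on both scales (circles). The count on both scales is 104 with all libraries, 1363 without obese vehicle replicate 5, 533 without enalapril replicate 1, and 2 to 4 without any one of the other 8.

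The medulla gave a second set of libraries for the same drug, although animals may be shared with cortex. ENSRNOG00000002937 averaged 15.1 ± 7.45 FPKM with enalapril and 1.66 ± 0.571 FPKM with obese vehicle in medulla (SD, n = 5 each), with 4.74 FPKM in the lowest enalapril library and 2.61 FPKM in the highest obese vehicle library. Its rescaled log2 fold change there was 2.83 ± 0.368 (SE, limma adjusted p = 0.0259). ENSRNOG00000013062 averaged 116 ± 30.7 FPKM with enalapril and 41.5 ± 10.9 FPKM with obese vehicle in medulla, a rescaled log2 fold change of 1.60 ± 0.23 (limma adjusted p = 0.0409). ENSRNOG00000025571 had a rescaled log2 fold change of -1.24 ± 0.245 and ENSRNOG00000007778 of -0.83 ± 0.156 in medulla (limma adjusted p = 0.0409 for both). These 4 calls in medulla also depended on the libraries kept, with rescaled adjusted p of up to 0.109, 0.12, 0.12 and 0.12 in the order given when a medulla library was left out. The libraries whose loss kept all 4 on the rescaled values were enalapril replicate 3 and obese vehicle replicates 3 and 5.

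No difference between the tissues was detected for any ID. The interaction, the effect in cortex minus the effect in medulla, gave 0 calls among 13950 IDs on either scale (limma). This fit treated the cortex and medulla libraries as independent, although animals may be shared. How sharing would change the intervals and counts was not tested. At an unadjusted p under 0.05 limma found 637 of the 13950 IDs as deposited and 607 after rescaling. A share of 0.05 passes that cutoff when nothing differs, and neither count exceeds it, so nothing is read from them. For ENSRNOG00000002937 the interaction was 0.14 on the rescaled log2 scale, with a 95% interval of -0.82 to 1.1. For ENSRNOG00000013062 it was 0.07 (-0.76 to 0.91), for ENSRNOG00000025571 -0.30 (-1.11 to 0.50) and for ENSRNOG00000007778 -0.43 (-0.97 to 0.10). Differences of any size inside these intervals, 0 among them, remain possible with these libraries.

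Among 12666 IDs tested in both tissues, rescaled log2 fold changes in cortex and medulla had a Pearson r of 0.60 and a Spearman rho of 0.62. This is across IDs, which are not independent replicates, and animals may be shared. Of the 104 cortex calls, 101 were tested in medulla. The rescaled change in medulla had the same sign for all 18 rises tested there and for 81 of the 83 falls, where 71.7% of all IDs tested in both had the same sign. The calls were picked by their changes in cortex and most other IDs changed little, so nothing is read from the gap between these shares. In medulla 1011 IDs were called as deposited, 7.46% of 13555 tested (110 higher, 0.812%, and 901 lower, 6.65%), and 147 after rescaling, 1.08% (65 higher and 82 lower). Calls on both scales numbered 140, or 1.03%, and 6 rises and 14 falls were called in both tissues. These were 19.2% of the cortex calls and 14.3% of the medulla calls, and 0 IDs were called in opposite directions.

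**Figure D5:**
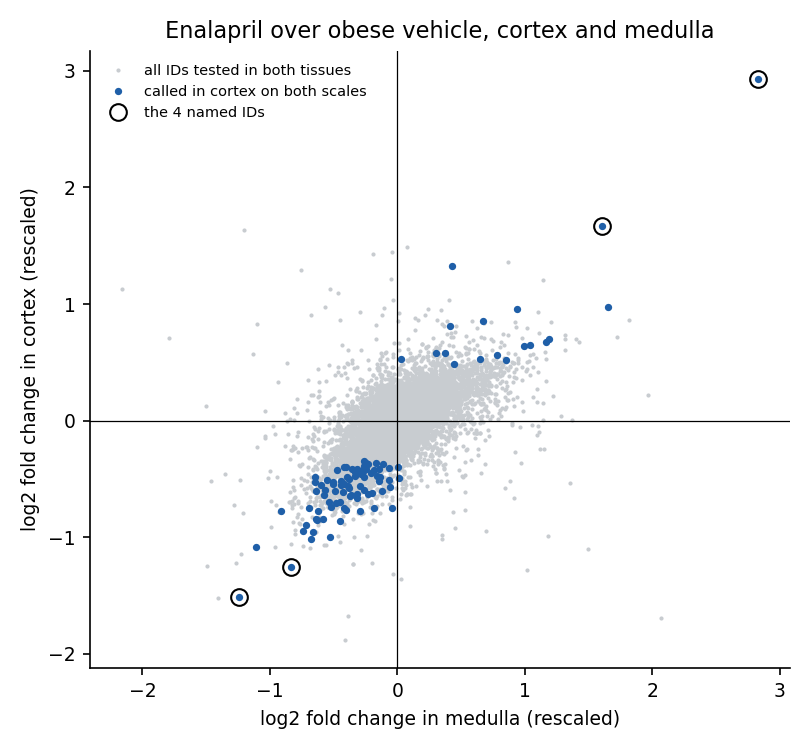
Rescaled log2 fold change (enalapril over obese vehicle) in cortex (vertical) against medulla (horizontal) for 12666 IDs tested in both tissues. Blue points are the cortex calls on both scales, and circles mark the 4 named IDs, which lie in the same quadrants in both tissues, ENSRNOG00000002937 farthest out at 2.93 and 2.83.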

How the data were processed

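The authors deposited FPKM values for 32545 Ensembl gene IDs in 50 libraries of rat kidney, prepared per the labels' protocols from 1 ug of total RNA with a stranded ribosomal RNA removal kit. Which aligner, counting tool and genome build were used is not given in the sources used here. Columns were matched to samples by the library number in the description, and 0 columns were left unmapped. No ID matched a name in the reference table, so the gene and marker lists were not run, no sequence is shown and no more than 2 IDs per direction were named: those called in the same direction on both scales, with a mean of at least 2 FPKM in the higher group and the largest rescaled changes. Members and lists were chosen with earlier results of these data known.

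Tests used R 4.3.3 and limma 3.58.1 (trend, robust) on log2(FPKM + 0.5), fitted on the compared groups only, for IDs reaching 1 FPKM in no fewer than 5 fitted libraries. For single values per library, exact permutation tests were two-sided (scipy 1.17.1). The fit was also run on simulated data with known changes, drawn independently for each ID and library. That setting lacks differences between libraries shared by many IDs, so it does not bear on how calls depend on single libraries. Absolute depth is unknown. Low values fell on whole multiples of 1 read (tolerance 0.1 reads) for 93.0% of 60222 values in 5123 rarely detected IDs, which gave a relative depth per library of 0.599 to 1.53 over the series and limits the precision of low IDs. Library numbers fall in 2 ranges, and the higher one holds enalapril replicate 6 and obese vehicle replicate 5. No 2 libraries held identical values. Alternatives were another pseudocount, no filter, the replicate number as a block, all 25 libraries of the tissue, other rescalings, relative depth as a covariate, and leaving out libraries.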

Additional observations from a re-analysis of the deposited data

Results flagged for a closer look

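Libraries at the end of their group by a wide gap were looked for in 47 groups of 5 values, of which chance flags about 1 in 20, and 5 were found. ENSRNOG00000002937 in cortex was highest in obese vehicle replicate 5, at 8.36 FPKM beside 6.59 FPKM in the next library. ENSRNOG00000025571 in cortex was highest in enalapril replicate 2, at 1.61 FPKM beside 0.791 FPKM, and the same ID was listed at 0.144 FPKM in lean vehicle replicate 3 and at 0 in the other lean cortex libraries. ENSRNOG00000007778 reached 14.6 FPKM in MK-8722 10 mpk cortex replicate 6, beside 5.59 FPKM in the next library. The scale factor of enalapril replicate 1 in cortex was 1.00, beside 0.931 in the next enalapril library.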

How the results depend on the processing

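In cortex, 484 IDs were called as deposited, 125 rescaled and 104 on both scales. These counts became 3, 2 and 2 without the filter on low values and likewise 3, 2 and 2 with relative depth as a covariate. The fit with that covariate cannot fully separate depth from treatment. They became 2004, 343 and 274 with all 25 cortex libraries fitted, and 2733, 1321 and 866 without the 2 libraries of the higher number range. Leaving out 1 library gave 3 to 4189, 2 to 2140 and 2 to 1363. With a pseudocount of 0.1, upper quartile rescaling, or rescaling by the sum without the 6 most abundant IDs (chosen after seeing the data), counts stayed within 1.5 times.

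Whether replicate numbers pair enalapril with obese vehicle libraries of a tissue is not settled by the few numbers that both groups share. Whether the numbers pair cortex with medulla of the same animal was not tested. In cortex, deviations of same-numbered enalapril and obese vehicle libraries had r of 0.22, 0.11 and -0.0071 for numbers 1, 2 and 6 (rescaled). Only number 1 correlated best with its own number. In medulla the pairs ran from -0.13 to 0.19, and numbers 5, 6 and 7, but not 3, correlated best with their own number. With the number as a block the cortex counts were 3273, 1528 and 954, and the medulla counts 3 and 0. A library whose number is absent from the other group does not inform these fold changes. Those of cortex therefore rest on numbers 1, 2 and 6, without obese vehicle replicate 5, and those of medulla on numbers 3, 5, 6 and 7. Leaving out only obese vehicle replicate 5 of cortex gave 4189, 2140 and 1363. The block counts thus cannot separate pairing from the loss of libraries. In medulla, 1011 IDs were called as deposited and 147 rescaled, or 141 and 4 without the filter, 1518 and 621 with all 25 medulla libraries, and 1 to 2721 and 0 to 1638 with 1 library left out, lowest without obese vehicle replicates 4 or 6 and highest without enalapril replicate 3. The interaction had 0 calls as deposited in every fit that left out a library, and 0 to 1 rescaled, the 1 without cortex enalapril replicate 2.

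ENSRNOG00000002937 kept its cortex call in all alternatives run, with rescaled log2 fold changes of 2.57 to 3.05. Its interaction, near 0, changed sign: -0.15 as deposited and -0.0835 rescaled with a pseudocount of 0.1, -0.19 and -0.0704 with the block, and -0.31 to 0.26 and -0.22 to 0.36 with 1 library left out. That of ENSRNOG00000013062 was -0.15 and -0.0729 with the block, and -0.16 to 0.18 and -0.11 to 0.29 with 1 library left out. The cause of these changes was not tested. The difference in the share of the 6 most abundant IDs was 5.16 to 10.3 percentage points with 1 library left out. The difference in relative depth, 0.221, was 0.151 to 0.300 with 1 library left out, passing only without obese vehicle replicate 5 (exact permutation p = 0.0476). The difference in IDs at an FPKM of at least 1, -458, was -578 to -389 with 1 library left out and -560 without the higher number range (exact permutation p = 0.0571). Depth limits the precision of IDs near 1 FPKM. List counts were not run, since the IDs carry no names here.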
